A study of Mus musculus with 28 samples.

Results

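Transcripts of 9 genes of fluoropyrimidine action and metabolism were examined in AB1-HA tumors of mice treated with chemotherapy, immune checkpoint blockade (ICB) or both. The genes were Tyms, Dpyd, Umps, Tk1, Upp1, Tymp, Dut, Rrm1 and Rrm2, taken by symbol from 55341 gene rows of each of 2 deposited count matrices, and their choice set no threshold on any value. AB1-HA is a mouse mesothelioma cell line that grew as a subcutaneous tumor in BALB/c.AusBP mice. RNA was sequenced from 28 whole tumors, each from a different mouse and each taken 7 days after treatment had begun. Treatment began at a tumor area of 20 to 25 mm2. Control mice received PBS (n = 4). ICB (n = 5) was anti-CTLA-4 at 100 ug with anti-PD-L1 at 100 ug, followed by 2 more anti-PD-L1 doses given 2 days apart. 5-FU (5-fluorouracil, n = 5) was given intravenously at 75 mg/kg and Cisplatin (n = 4) intraperitoneally at 6 mg/kg. The combinations, 5-FU+ICB (n = 5) and Cisplatin+ICB (n = 5), joined these regimens. Every group carried the same cell line, and an implant under the skin is not a tumor of the pleura.

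5-FU is a prodrug. Umps, or Upp1 followed by a kinase, turns it into a ribonucleotide, while Tymp and Tk1 lead to the deoxyribonucleotide that blocks thymidylate synthase, the product of Tyms. Rrm1 and Rrm2 are the large and small subunits of ribonucleotide reductase, which makes deoxyribonucleotides, and Dut clears dUTP before it enters DNA. Dpyd starts the breakdown of uracil, thymine and 5-FU. Tyms, Tk1, Dut, Rrm1 and Rrm2 are known as genes of the S phase of the cell cycle, so their levels were also read relative to Mki67, which encodes the proliferation antigen Ki-67.

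In GRCm38, Tyms lies on chromosome 5 at chr5:30058202-30073617 on the minus strand, and has a processed pseudogene, Tyms-ps, with which reads could be shared. Tk1 lies at chr11:117815526-117826092 on the minus strand, and exons of Afmid overlap it on the other strand. Dut is at chr2:125247190-125258608, Rrm1 at chr7:102441695-102469771 and Rrm2 at chr12:24708241-24714146, all on the plus strand. Umps is at chr16:33954782-33967038 on the minus strand, with Gm15829 antisense to it, and Upp1 at chr11:9118103-9136170 on the plus strand. Tymp is at chr15:89371931-89377039 on the minus strand. It shares exonic bases with Sco2 on its own strand and with Ncaph2 on the other. Dpyd spans chr3:118562129-119432924 on the plus strand. All 9 encode proteins. The counting was not stated to use strand, so reads in the overlapping stretches of Tk1, Umps and Tymp cannot be assigned with certainty.

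The upstream sequences of 4 of the genes of DNA synthesis that fell with ICB are shown, with Upp1, which rose with ICB, beside them. Dut is not shown because its window lies within annotated exons, and of the 3 windows of Upp1 the one that ends at the annotated gene start is given. They are RefSeq promoter windows in GRCm38.p6, 5′ to 3′ on the gene's strand, ending before the first annotated exon base, and capitals mark the letters CCAAT, the core of the CCAAT box. The Tyms window is chr5:30073626-30073875 on the minus strand.
Tyms: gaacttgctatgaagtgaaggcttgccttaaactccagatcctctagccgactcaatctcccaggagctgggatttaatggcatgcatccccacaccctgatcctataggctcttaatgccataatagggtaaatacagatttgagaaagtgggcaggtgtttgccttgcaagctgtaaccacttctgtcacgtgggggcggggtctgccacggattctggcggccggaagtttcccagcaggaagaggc
The Tk1 window is chr11:117826093-117826264 on the minus strand.
Tk1: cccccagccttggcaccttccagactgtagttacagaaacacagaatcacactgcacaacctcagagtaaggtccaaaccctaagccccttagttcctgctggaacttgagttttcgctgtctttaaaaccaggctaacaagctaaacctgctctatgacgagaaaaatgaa
The Rrm1 window is chr7:102441445-102441694 on the plus strand, with CCAAT 91 and 45 bases before the end of the window.
Rrm1: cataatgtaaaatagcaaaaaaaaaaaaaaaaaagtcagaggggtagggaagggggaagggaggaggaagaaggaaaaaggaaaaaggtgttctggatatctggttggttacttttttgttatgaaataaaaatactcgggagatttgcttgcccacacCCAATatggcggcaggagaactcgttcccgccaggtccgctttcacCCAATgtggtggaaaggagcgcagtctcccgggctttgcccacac
The Rrm2 window is chr12:24708004-24708240 on the plus strand, with CCAAT 37 bases before the end of the window.
Rrm2: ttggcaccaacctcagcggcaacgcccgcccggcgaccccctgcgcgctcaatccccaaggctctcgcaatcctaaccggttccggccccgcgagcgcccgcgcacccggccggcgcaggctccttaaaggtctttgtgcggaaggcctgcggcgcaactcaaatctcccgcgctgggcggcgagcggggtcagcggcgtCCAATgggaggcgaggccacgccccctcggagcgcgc
The Upp1 window is chr11:9117853-9118102 on the plus strand.
Upp1: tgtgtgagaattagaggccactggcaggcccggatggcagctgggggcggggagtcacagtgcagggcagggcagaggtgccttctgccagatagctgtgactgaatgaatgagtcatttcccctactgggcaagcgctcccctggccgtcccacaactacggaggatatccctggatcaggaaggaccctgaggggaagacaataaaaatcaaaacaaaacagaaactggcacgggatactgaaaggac

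The windows of 250 bases before each start were searched on both strands for 3 motifs that do not overlap one another in their letters. CCAAT stood in Rrm1 (2 matches), Rrm2 (1) and Tymp (2), and in 33.9% of 32841 mouse promoters of the same length. The E2F motif TTTNNCGC stood in 0 of the members' windows and in 4.28% of all promoters. TTTGAA, the cell cycle homology region, stood in Umps (1 match) and in 16.0% of all promoters. A match describes the letters of a window only.

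Each tumor had between 23541485 and 33950555 counts (median 28797305). All 9 members passed the filter on low counts in both matrices. Levels are given as CPM, in which each tumor's counts are scaled to a common library size, after TMM scaling of all 28 tumors together. In bulk tumors, fewer cells of a type and less RNA per cell cannot be told apart. Of the markers for the labelled tumor type, Msln (median 142 CPM, range 0.5 to 654) and Pdpn (median 101 CPM) were present, whereas Upk3b was at 0 in 23 tumors and Wt1, Krt8, Krt18 and Krt19 had medians of 1.05 CPM or less.

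Of the 28 tumors, 4 stood apart in a way that bears on every comparison with PBS. The length slope was computed as the change in log2 CPM, relative to the median tumor, for each doubling of transcript length, over 10142 genes that are neither members nor Mki67. It was -0.325 in PBS replicate 1, -0.582 in PBS replicate 2, -0.36 in Cisplatin replicate 4 and -1.09 in Cisplatin+ICB replicate 1, so long transcripts were low in these tumors. In the other 24 tumors it was no lower than -0.218. Mki67, whose transcript is 10.061 kb long, stood at 170 and 97.9 CPM in PBS replicates 1 and 2 but at 678 and 480 CPM in replicates 3 and 4. Tk1, at 1.44 kb, stood at 189 and 300 CPM against 153 and 148 CPM in the same tumors. The sources used here do not say what sets these tumors apart, and each called edgeR fold change of a member against PBS is also given without them.

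**Figure D1:**
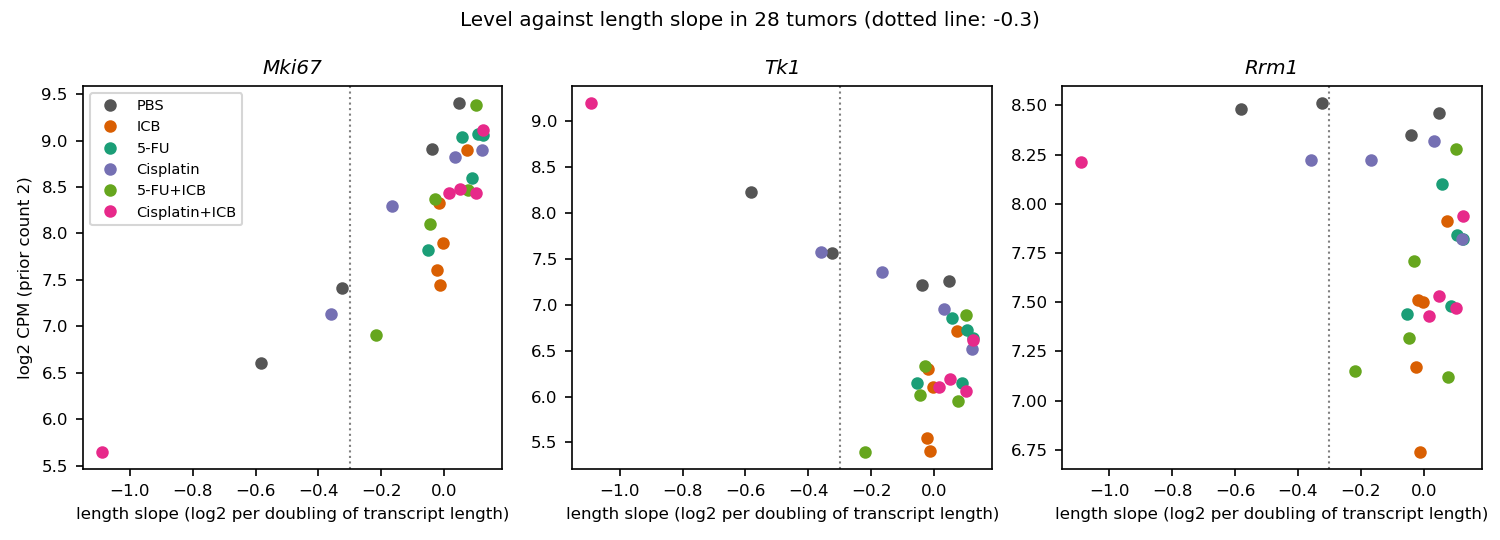
log2 CPM (prior count 2) of Mki67, Tk1 and Rrm1 on the y axes against the length slope of the same tumor on the x axes, 1 point per tumor (28), coloured by group, with a dotted line at -0.3. Mki67 is lowest and Tk1 highest in Cisplatin+ICB replicate 1, whose slope is -1.09.

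Against PBS, 7 of the 9 members changed with ICB, 4 with 5-FU and 6 with 5-FU+ICB. With ICB, 6 members fell (Tyms, Umps, Tk1, Dut, Rrm1 and Rrm2) and 1 rose (Upp1). A change was called at an adjusted p under 0.05 (edgeR, Benjamini-Hochberg over all genes) with a log2 fold change beyond 0.5. By this rule 18.8% of all genes tested fell and 19% rose with ICB. With 5-FU, Tyms, Tk1, Dut and Rrm1 fell, against 13% of all genes, and 0 members rose, against 9.98% of genes, with 1 member (Dpyd) higher at an unadjusted p under 0.05 and called by DESeq2. With 5-FU+ICB, Tyms, Tk1, Dut, Rrm1 and Rrm2 fell, against 18.7% of genes, and Dpyd rose, against 21.9%. The median log2 fold change of the 9 members was -1.02 for ICB, -0.69 for 5-FU and -0.73 for 5-FU+ICB, where that of all genes was -0.03, -0.01 and -0.04. These 3 comparisons share the PBS tumors.

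Without the 4 tumors of steep length slope, 2 members changed with ICB (Dut fell and Upp1 rose), 0 with 5-FU and 0 with 5-FU+ICB by the same edgeR test. The direction of every member was kept in all 3 comparisons except for Upp1 with 5-FU. With 2 PBS tumors left, however, only 3.91% of all genes fell and 1451 of 18934 rose with ICB. Of these 18934 genes, 70 were called with 5-FU and 1789 with 5-FU+ICB. Leaving out single tumors moved the count with 5-FU from 0 (without PBS replicate 2, with 7.87% of all genes called) to 6 (without 5-FU replicate 2, with 23.8% called).

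**Figure D2:**
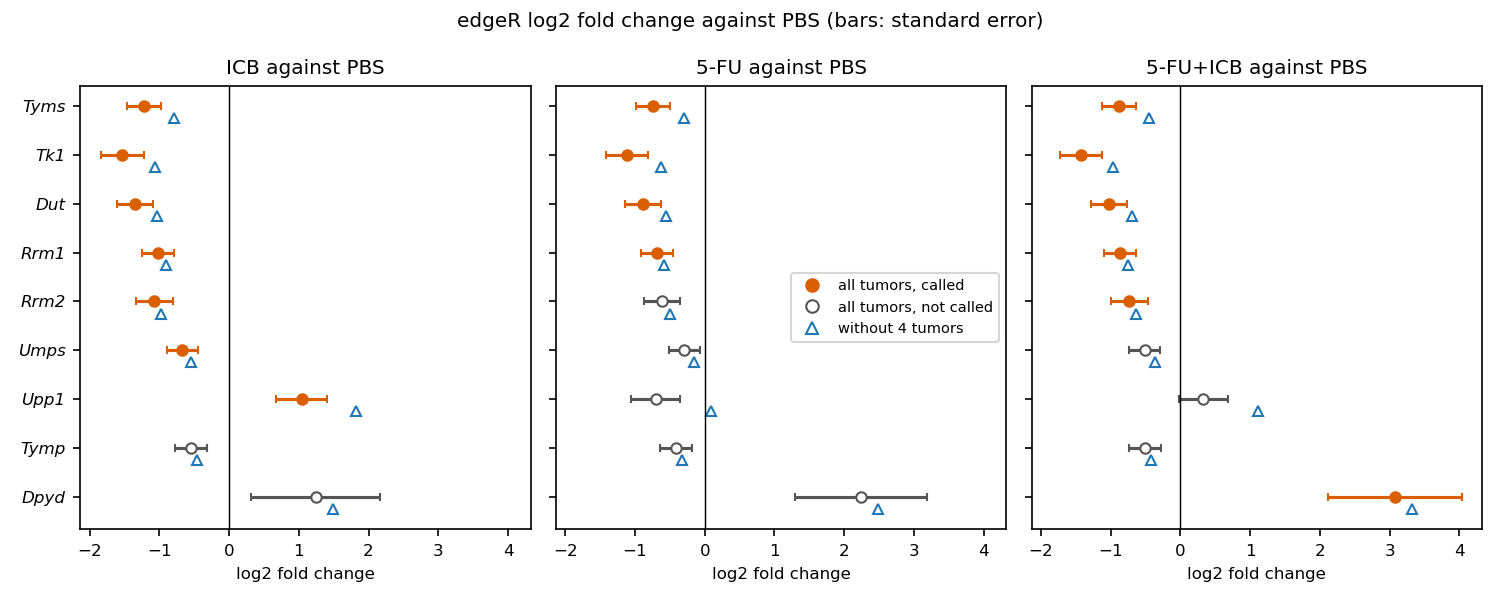
edgeR log2 fold change of the 9 members (y axis) against PBS (x axis) for ICB, 5-FU and 5-FU+ICB, with standard errors. Filled circles were called, open circles were not, and triangles give the value without the 4 tumors of steep length slope, which for Tk1 with ICB moves from -1.53 to -1.06.

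Tyms, the target of 5-FU, fell with ICB, 5-FU and 5-FU+ICB, and was not called with Cisplatin or Cisplatin+ICB. It stood at 90.8, 129, 71.5 and 70.2 CPM in the 4 PBS tumors. With ICB it was 42.9, 23.8, 31.5, 54.4 and 40.6 CPM, and with 5-FU 55.8, 68.2, 48.1, 56.9 and 44.6 CPM. Every ICB tumor lay below every PBS tumor, and so did every 5-FU tumor, although the 5-FU tumors overlapped PBS when the 5-FU matrix was scaled on its own. With 5-FU+ICB it was 42.5, 72.6, 51.9, 36.5 and 43 CPM, so that replicate 2 reached into the PBS range. Cisplatin tumors (51, 86.5, 63.9 and 89.4 CPM) overlapped PBS. Cisplatin+ICB tumors held 278 CPM in replicate 1, the highest of all 28, and 37.5, 52.8, 39.7 and 43.2 CPM in the others. Tyms fell by 1.22 ± 0.24 (log2, SE) with ICB (edgeR adjusted p = 0.0013), by 0.74 ± 0.24 with 5-FU (edgeR adjusted p = 0.0344) and by 0.88 ± 0.24 with 5-FU+ICB (edgeR adjusted p = 0.00835). The log2 fold changes without the 4 tumors were -0.79 (edgeR adjusted p = 0.0538), -0.3 (0.562) and -0.45 (0.22). The call with 5-FU was lost in 6 of the 9 fits that left out 1 tumor.

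**Figure D3:**
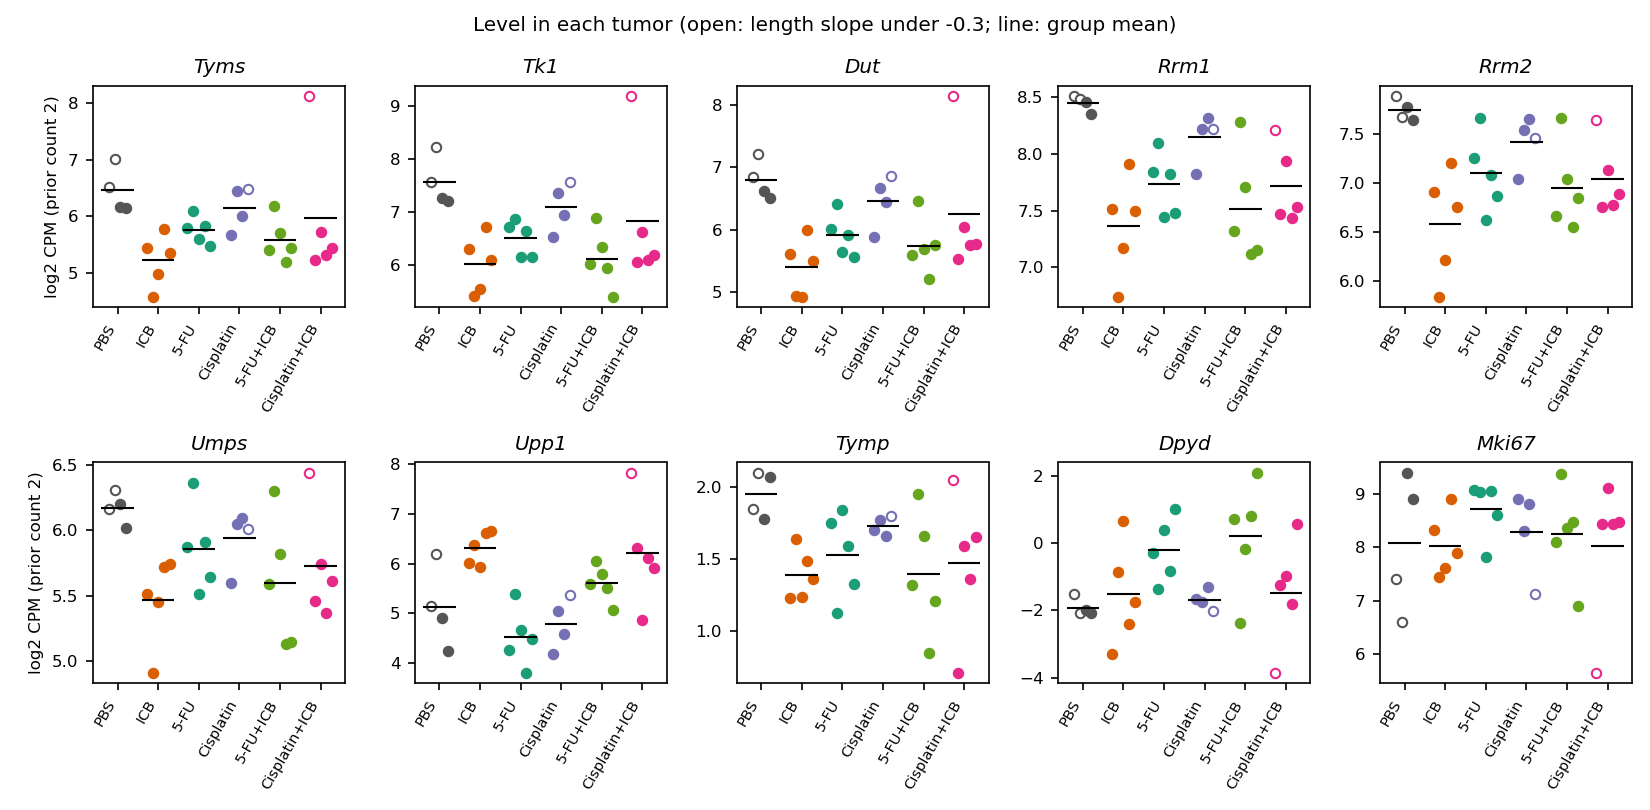
log2 CPM (prior count 2, y axes) of the 9 members and Mki67 in each of the 28 tumors by group (x axes), with black lines at the group means and open symbols for the 4 tumors with a length slope under -0.3. Tyms, Tk1, Dut, Rrm1 and Rrm2 are lower in each ICB tumor than in each PBS tumor, and Upp1 in ICB tumors overlaps PBS through PBS replicate 2.

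Tk1, the cytosolic thymidine kinase of the salvage pathway, showed the lowest fold change of the members with ICB. It stood at 189, 300, 153 and 148 CPM in PBS tumors, at 78.9, 42.4, 46.7, 104 and 68.6 CPM with ICB and at 105, 116, 70.8, 100 and 70.8 CPM with 5-FU. With 5-FU+ICB it was 64.9, 119, 80.4, 61.8 and 42.2 CPM. None of these 3 treated groups overlapped PBS. Cisplatin tumors (91.8, 164, 123 and 190 CPM) did overlap it, and Cisplatin+ICB tumors held 586 CPM in replicate 1 and 66.8, 98, 68.5 and 72.9 CPM in the others. Tk1 fell by 1.53 ± 0.31 with ICB (edgeR adjusted p = 0.00131), by 1.11 ± 0.3 with 5-FU (edgeR adjusted p = 0.0159) and by 1.43 ± 0.3 with 5-FU+ICB (edgeR adjusted p = 0.00206). The 4 tumors left out, the values were -1.06 (edgeR adjusted p = 0.0501), -0.63 (0.373) and -0.96 (0.0706), and the 5-FU call was also lost without PBS replicate 2 alone, at -0.8.

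Dut, the dUTP pyrophosphatase, followed the same order. It stood at 114, 148, 98.3 and 91.4 CPM with PBS, at 49.2, 30.6, 30.4, 64.2 and 45.1 CPM with ICB, at 64.7, 85.6, 49.8, 60.1 and 47 CPM with 5-FU and at 48, 88.2, 51.8, 37.2 and 54.1 CPM with 5-FU+ICB. None of the 3 groups overlapped PBS, though the highest 5-FU+ICB tumor (88.2 CPM) lay close to the lowest PBS tumor (91.4 CPM). Dut fell by 1.35 ± 0.26 with ICB (edgeR adjusted p = 0.00102), by 0.89 ± 0.26 with 5-FU (edgeR adjusted p = 0.02) and by 1.02 ± 0.26 with 5-FU+ICB (edgeR adjusted p = 0.00506). It was the member that still fell with ICB without the 4 tumors, by 1.03 (edgeR adjusted p = 0.039), whereas the 5-FU value of -0.56 (edgeR adjusted p = 0.378; the call was also lost in 3 of 9 fits that left out 1 tumor) and the 5-FU+ICB value of -0.69 (0.12) were not called. Cisplatin tumors held 59.2, 102, 86.5 and 116 CPM and Cisplatin+ICB tumors 282, 46.6, 66.3, 53.7 and 54.4 CPM, and both groups overlapped PBS.

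Rrm1, the regulatory and catalytic large subunit of ribonucleotide reductase, varied least among PBS tumors (366, 358, 352 and 326 CPM, or 350 ± 17, SD, n = 4). With ICB it was 182, 107, 143, 240 and 181 CPM and with 5-FU 229, 275, 173, 226 and 178 CPM. With 5-FU+ICB it was 160, 310, 210, 140 and 142 CPM. Rrm1 was the only member whose Cisplatin tumors (226, 298, 320 and 298 CPM) and Cisplatin+ICB tumors (296, 177, 245, 172 and 185 CPM) lay below every PBS tumor, as all other treated tumors did. In Cisplatin+ICB it was alone in this only with replicate 1 included. Rrm1 fell by 1.02 ± 0.23 with ICB (edgeR adjusted p = 0.00254), by 0.69 ± 0.23 with 5-FU (edgeR adjusted p = 0.0342) and by 0.86 ± 0.23 with 5-FU+ICB (edgeR adjusted p = 0.00681). With those 4 tumors left out, the values were -0.91 (edgeR adjusted p = 0.0507), -0.58 (0.348) and -0.75 (0.0917), and the 5-FU call was lost in 6 of 9 fits that left out 1 tumor.

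Rrm2, the small subunit that carries the tyrosyl radical, stood at 237, 205, 220 and 201 CPM with PBS. It was 120, 57.1, 74.2, 148 and 108 CPM with ICB, 153, 203, 98.3, 135 and 117 CPM with 5-FU and 101, 203, 131, 93.9 and 115 CPM with 5-FU+ICB. ICB tumors did not overlap PBS, while replicate 2 of 5-FU and replicate 2 of 5-FU+ICB each reached the lowest PBS value. Rrm2 fell by 1.07 ± 0.26 with ICB (edgeR adjusted p = 0.00399) and by 0.73 ± 0.26 with 5-FU+ICB (edgeR adjusted p = 0.0291), and its log2 fold change with 5-FU was -0.61 ± 0.26 (edgeR adjusted p = 0.0878). The 5-FU+ICB call was lost in 5 of 9 fits that left out 1 tumor. In the remaining 24 tumors the values were -0.97 (edgeR adjusted p = 0.0601), -0.5 (0.454) and -0.63 (0.179). Cisplatin tumors held 131, 186, 202 and 176 CPM and Cisplatin+ICB tumors 201, 108, 140, 110 and 118 CPM.

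Counted by separation in place of a test, 7 members lay lower in every ICB tumor than in every PBS tumor (Tyms, Umps, Tk1, Tymp, Dut, Rrm1 and Rrm2), as did 21.6% of all genes. For 5-FU these were Tyms, Tk1, Dut and Rrm1, against 17.8% of genes, and for 5-FU+ICB Tk1, Dut and Rrm1, against 14.7%. For Cisplatin and Cisplatin+ICB only Rrm1 did so, against 1.91% and 4.69% of genes. In Cisplatin+ICB this rests on replicate 1. Without it (n = 4) the highest values were 52.8 (Tyms), 98 (Tk1), 66.3 (Dut), 140 (Rrm2), 53.4 (Umps) and 3.07 CPM (Tymp). The lowest PBS values were 70.2, 148, 91.4, 201, 64.6 and 3.36 CPM, so these members then lay below every PBS tumor too. The share of all genes that did so without replicate 1 was not computed. Tymp with ICB and Tyms with 5-FU overlapped PBS when each matrix was scaled on its own.

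Of the genes that activate 5-FU, Upp1 rose with ICB. Upp1, uridine phosphorylase, stood at 35.5, 72.9, 30 and 19 CPM in PBS tumors and at 64.2, 82.8, 60.9, 98.5 and 101 CPM with ICB. All ICB tumors lay above PBS replicates 1, 3 and 4, and 3 of them above PBS replicate 2, a tumor of steep length slope. With 5-FU it was 19.2, 42.2, 25.5, 13.9 and 22.3 CPM, with 5-FU+ICB 48.1, 66.5, 55.5, 45.8 and 33.4 CPM, and both groups overlapped PBS. Upp1 rose by 1.04 ± 0.36 with ICB (edgeR adjusted p = 0.027). The rise was 1.82 without the 4 tumors (edgeR adjusted p = 0.0151), but the call was lost in 4 of the 9 fits that left out 1 tumor, at 0.8 without PBS replicate 4. The log2 fold change was -0.7 ± 0.35 with 5-FU (edgeR adjusted p = 0.142), which became 0.09 without the 4 tumors, and 0.33 ± 0.35 with 5-FU+ICB (edgeR adjusted p = 0.458), which became 1.11 without the 4 tumors (edgeR adjusted p = 0.062) and 0.86, a called rise, without PBS replicate 2.

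Upp1 was also read against each single agent. The log2 fold change of 5-FU+ICB was 1.03 ± 0.33 against 5-FU (edgeR adjusted p = 0.164) and -0.72 ± 0.33 against ICB (edgeR adjusted p = 0.448), and the value of the combination lay between those of the single agents. Cisplatin tumors held 18.1, 33, 23.9 and 41.4 CPM and Cisplatin+ICB tumors 227, 79, 28.9, 68.8 and 60.5 CPM. The Cisplatin+ICB mean was 92.9 ± 77.5 CPM (SD, n = 5), or 59.3 ± 21.6 CPM (SD, n = 4) without replicate 1. Against Cisplatin the difference was 1.68 ± 0.5 (edgeR adjusted p = 0.132), and without the 4 tumors Upp1 rose by 1.31 (edgeR adjusted p = 0.0349).

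Markers of leukocytes differed between the groups too. Ptprc (CD45) averaged 92.1 ± 12.7 CPM with PBS, 365 ± 82.4 CPM with ICB, 195 ± 99 CPM with 5-FU and 402 ± 223 CPM with 5-FU+ICB (SD). It rose by 2 with ICB (edgeR adjusted p = 0.00231), by 2.15 with 5-FU+ICB (edgeR adjusted p = 0.00174) and by 1.41 with Cisplatin+ICB (edgeR adjusted p = 0.0238), and was 1.09 with 5-FU (edgeR adjusted p = 0.0654). No member was called with Cisplatin+ICB, but 6 members, and 6277 of 17772 genes, were called without Cisplatin+ICB replicate 1. The mean log2 CPM of 7 macrophage genes ran from 7.6 to 8 in PBS tumors and from 8.73 to 10.23 in ICB tumors, and that of 5 T cell genes from 1.88 to 2.41 and from 4.45 to 6.51. Of the fibroblast list (3 genes), the median was 7.84 with PBS, 8.2 with ICB and 9.2 with 5-FU. The mean of 5 neutrophil genes ran from 0.11 to 1.53 with PBS, from 1.95 to 3.79 with ICB and from 2.22 to 3.54 with Cisplatin+ICB, with medians of 0.85 with 5-FU and 1.33 with 5-FU+ICB. Endothelial genes (3) ran from 4.01 to 5.23 with PBS, and from 5.24 with 5-FU and 5.44 with 5-FU+ICB upward. The mitochondrial share of counts was 1.53 to 2.37% with PBS, 2.69 to 4.82% with ICB, 2.72 to 6.8% with 5-FU and 2.33 to 16.1% with 5-FU+ICB. The part of these cells, and of RNA quality, in the levels of the members and of the related genes given below, Samhd1 and Slc28a2 included, was not tested.

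Umps, the bifunctional enzyme that makes UMP and takes up 5-FU through its phosphoribosyltransferase domain, stood at 71.3, 79.5, 73.5 and 64.6 CPM with PBS and at 45.4, 30, 43.5, 52.5 and 53.5 CPM with ICB. The groups did not overlap, and Umps fell by 0.67 ± 0.22 (edgeR adjusted p = 0.0203). The call was lost in 2 of 9 fits that left out 1 tumor, and without the 4 tumors the value was -0.54 (edgeR adjusted p = 0.178). With 5-FU Umps was 58.2, 82.1, 45.5, 60.2 and 49.9 CPM, a range that encloses that of PBS, and its log2 fold change was -0.29 ± 0.22 (edgeR adjusted p = 0.329). With 5-FU+ICB it ranged from 34.9 to 78.6 CPM, with a log2 fold change of -0.51 (edgeR adjusted p = 0.0641). Without the 4 tumors these values were -0.15 and -0.37.

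Tymp, thymidine phosphorylase, was low throughout, between 1.56 and 4.2 CPM in all 28 tumors. It stood at 3.53, 4.2, 3.36 and 4.12 CPM with PBS and at 2.28, 3.06, 2.29, 2.74 and 2.49 CPM with ICB, where the groups did not overlap. Its log2 fold change was -0.54 ± 0.23 with ICB (edgeR adjusted p = 0.0659), -0.41 ± 0.23 with 5-FU (edgeR adjusted p = 0.188) and -0.51 ± 0.23 with 5-FU+ICB (edgeR adjusted p = 0.0777). The remaining 24 tumors gave -0.46 (edgeR adjusted p = 0.254), -0.32 (0.569) and -0.42 (0.277). Tymp was called in none of the edgeR comparisons with all tumors, but gained a call with 5-FU+ICB when 5-FU+ICB replicate 2 was left out (-0.65).

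Dpyd, the first enzyme of 5-FU breakdown, was measured from few reads. PBS tumors held 7, 5, 5 and 5 counts (0.284, 0.17, 0.181 and 0.166 CPM), and 5-FU tumors 27, 9, 28, 16 and 54 counts (0.74, 0.324, 1.25, 0.489 and 1.94 CPM). Every 5-FU tumor lay above every PBS tumor, as in 9.27% of all genes. With 5-FU+ICB it was 1.56, 0.124, 0.811, 1.67 and 4.2 CPM, so replicate 2 lay below all PBS tumors and replicate 5 was the highest of the 28. Dpyd rose by 3.07 ± 0.96 with 5-FU+ICB (edgeR adjusted p = 0.0156), an 8.41-fold difference that was 2.4 (log2) without replicate 5 and 3.32 without the 4 tumors (edgeR adjusted p = 0.108). With 5-FU alone the log2 fold change was 2.24 ± 0.94 (edgeR adjusted p = 0.0834), and DESeq2 called it, at 2.32 (DESeq2 adjusted p = 0.0348). It was 2.49 without the 4 tumors (edgeR adjusted p = 0.372).

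In the other groups Dpyd varied from tumor to tumor. With ICB it was 0.0341, 0.486, 1.5, 0.122 and 0.227 CPM, from 1 to 38 counts, and its log2 fold change was 1.24 ± 0.93 (edgeR adjusted p = 0.293), or 0.18 without ICB replicate 3 and 1.49 without the 4 tumors. Cisplatin tumors held 0.25, 0.229, 0.335 and 0.178 CPM and Cisplatin+ICB tumors 0, 0.351, 0.442, 0.217 and 1.39 CPM. Values of 3 counts or fewer were taken as the floor, which covers ICB replicate 1 and Cisplatin+ICB replicate 1. Between treatments, 5-FU differed from Cisplatin by 1.91 ± 0.91 (edgeR adjusted p = 0.311) and 5-FU+ICB from ICB by 1.84 ± 0.81 (edgeR adjusted p = 0.417), with 1.16 without 5-FU+ICB replicate 5 and 2.9 without ICB replicate 3.

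Among the 5-FU+ICB tumors, skeletal muscle, adipocyte and some leukocyte genes were lowest where Dpyd was lowest and highest where it was highest. Between these extremes the muscle mean did not follow Dpyd. The mean log2 CPM of Ckm, Acta1, Myh4 and Mb was 3.25 to 4.56 in PBS tumors. It was 7.26, -0.03, 7.73, 7.07 and 7.46 with 5-FU, lowest in replicate 2, which also had the lowest Dpyd of its group. With 5-FU+ICB it was 6.52, -2.3, 6.89, 6.06 and 9.22, again lowest and highest in the tumors where Dpyd was lowest (replicate 2) and highest (replicate 5), and with ICB it was 0.39, 4.97, 8.42, -2.91 and 2.34. Of the 4 genes, 4 were measured, Myh4 was at 0 in 2 tumors and Mb in 1. 5-FU+ICB replicate 5 also had the highest mitochondrial share (16.1%) and the highest B cell mean (7.44) of all tumors. The mean log2 CPM of 2 adipocyte genes, Adipoq and Plin1, was 1.39 to 2.33 in PBS tumors, 4.19, 0.5, 3.97, 4.06 and 5.03 with 5-FU and 2.72, -0.54, 3.18, 4.51 and 5 with 5-FU+ICB, and neither gene was at 0 in any tumor. The adipocyte mean was lowest in replicate 2 and highest in replicate 5 of both groups, whereas the muscle mean with 5-FU was highest in replicate 3 (7.73). Ptprc and the T cell list had the same extremes in 5-FU+ICB but not in 5-FU, where both were lowest in replicate 4. With 5-FU+ICB, log2 CPM of Ptprc was 8.86, 6.72, 8.42, 8.55 and 9.5 and the T cell mean 6.98, 2.82, 5.85, 6 and 7.56. The macrophage (9.86, 7.82, 9.69, 9.18 and 8.87), neutrophil and NK cell means were lowest in replicate 2 but not highest in replicate 5. The B cell mean was lowest in replicate 3 (0.55). Endothelial genes shared both extremes in 5-FU+ICB (5.44 and 7.46), but with 5-FU were lowest in replicate 1 (5.24). Among PBS and among Cisplatin tumors the one with the highest Dpyd (replicates 1 and 3) had the lowest muscle mean, 3.25 and 3.56. The part of muscle, fat, endothelium and leukocytes in the level of Dpyd was not tested.

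**Figure D4:**
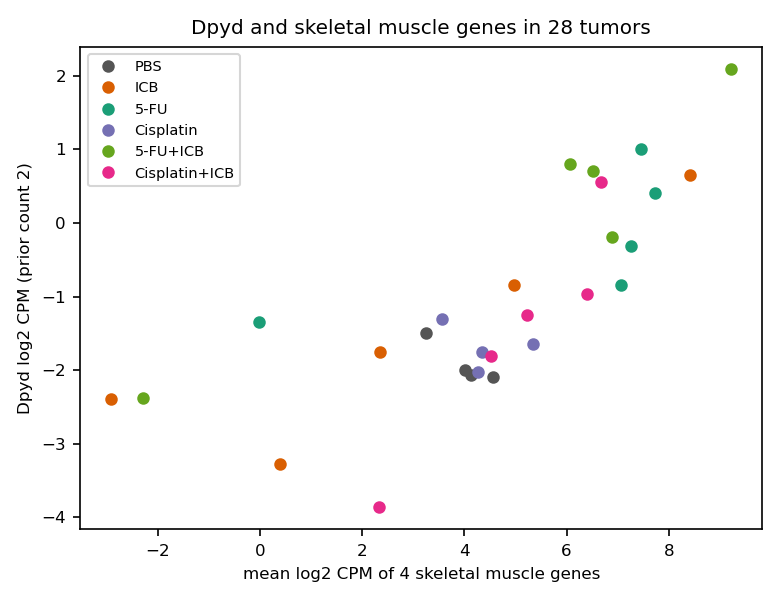
Dpyd log2 CPM (prior count 2, y axis) against the mean log2 CPM of Ckm, Acta1, Myh4 and Mb (x axis), 1 point per tumor (28), coloured by group. The 5-FU+ICB tumor at 9.22 on the x axis has the highest Dpyd level, at 4.2 CPM.

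Levels between genes were compared per kilobase of the longest coding transcript, as mean CPM per kb in PBS tumors. Tk1 was highest at 137 ± 49.1 (SD, n = 4), followed by Rrm2 (98.3 ± 7.47), Rrm1 (87.7 ± 4.26), Dut (57.9 ± 12.9), Upp1 (30.8 ± 18.3), Tyms (28.6 ± 8.69) and Umps (20.7 ± 1.77). Tymp (1.87 ± 0.207) and Dpyd (0.0445 ± 0.0125) lay far below. Neighbours in this order lay within their SDs of each other except Rrm1 and Dut, Umps and Tymp, and Tymp and Dpyd. In the 2 PBS tumors without a steep length slope Upp1 was 19.2 and lay below Tyms (22.4) and Umps (19.8), with the rest of the order unchanged from Tk1 (104) to Dpyd (0.0385). Taken over its longest coding transcript (3.163 kb), mean CPM per kb of Tyms, the drug's target, was below that of Tk1, Dut and both reductase subunits in PBS tumors. The order depends on the lengths taken, and which transcripts of each gene were present was not tested.

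Adding 5-FU to ICB, or ICB to 5-FU, gave no called member. Between 5-FU+ICB and ICB, 0 members were called by edgeR (2 at an unadjusted p under 0.05, Dpyd and Upp1, and 0 by DESeq2), where 0.229% of all genes were called. Between 5-FU+ICB and 5-FU the numbers were 0 by edgeR, 1 unadjusted (Upp1) and 0 by DESeq2, against 0.0112% of genes. Among all genes 10.9% and 16.6% passed unadjusted in these comparisons, and DESeq2 called 327 of 19475 and 539 of 18134. Whether the effect of 5-FU itself differed with ICB was tested as an interaction, and 0 members were called by edgeR (5 unadjusted, 2 by DESeq2), against 0.0893% of genes called by edgeR, 23.9% unadjusted and 9.57% called by DESeq2. The 5 were Dut (1.22 ± 0.35, edgeR adjusted p = 0.0706), Tyms (1.08 ± 0.33, edgeR adjusted p = 0.078), Tk1 (1.21 ± 0.42, 0.0993), Rrm1 (0.86 ± 0.31, 0.114) and Rrm2 (0.95 ± 0.36, 0.12), all above 0, which is the sign of a combination less far below PBS than the sum of both single effects. DESeq2 called Tyms at 1.03 (DESeq2 adjusted p = 0.0383) and Dut at 1.18 (DESeq2 adjusted p = 0.0239). The values of the 5 genes without the 4 tumors were 0.65 to 0.89 and edgeR called none of them.

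Cisplatin gave no called member in any comparison by edgeR. Against PBS, Cisplatin had 0 called members (0 unadjusted, 0 by DESeq2), where 0% of all genes were called. Cisplatin+ICB against PBS had 0 (3 unadjusted, 1 by DESeq2), against 6.1% of genes called by edgeR, 23.6% unadjusted and 10.1% called by DESeq2. The 3 were Upp1 (1.25 ± 0.49, edgeR adjusted p = 0.127), Rrm1 (-0.69 ± 0.21, edgeR adjusted p = 0.0622) and Rrm2 (-0.66 ± 0.25, edgeR adjusted p = 0.117), and DESeq2 called Rrm1 (-0.62, DESeq2 adjusted p = 0.0317). These counts rest on Cisplatin+ICB replicate 1, since 6 members, and 35.3% of all genes, were called when it was left out. Upp1 was called without the 4 tumors, at 1.41 (edgeR adjusted p = 0.0411), where Rrm1 and Rrm2 were -0.68 and -0.7. Cisplatin+ICB against ICB had 0 (3 unadjusted, namely Tyms, Tk1 and Dut, and 0 by DESeq2, against 0% of genes called and 15.9% unadjusted) and against Cisplatin 0 (1 unadjusted and 1 by DESeq2, which was Upp1 at 1.75, against 0% of genes called by edgeR, 14.2% unadjusted and 4.2% called by DESeq2). The interaction of cisplatin with ICB had 0 (Tyms, Tk1 and Dut unadjusted, 0 by DESeq2), against 0% of genes called and 7.14% unadjusted. These 3 genes were highest in Cisplatin+ICB replicate 1, without which their group means were 43.3 (Tyms), 76.5 (Tk1) and 55.2 CPM (Dut), against 38.7, 68.2 and 43.9 CPM with ICB. Over all genes DESeq2 called 4 of 35030 for Cisplatin against PBS and 52 of 19975 for Cisplatin+ICB against ICB. For the interaction of cisplatin with ICB it called 1 of 35030.

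5-FU and Cisplatin differed in 0 members by edgeR (1 unadjusted, which was Dpyd, and 0 by DESeq2), against 0.362% of genes called and 15.5% unadjusted. The agents were given at different doses and by different routes, and both were read on day 7. Mean Tyms was 54.7 ± 9.14 CPM (SD, n = 5) with 5-FU and 72.7 ± 18.4 CPM (SD, n = 4) with Cisplatin, and mean Rrm1 was 216 ± 41.7 CPM and 286 ± 40.9 CPM.

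Read relative to Mki67, no member was called, but the spread of Mki67 among PBS tumors left this test little power to call any gene, so the counts of 0 do not show that members kept pace with Mki67. Mki67 itself averaged 356 ± 271 CPM with PBS, 282 ± 123 CPM with ICB and 442 ± 136 CPM with 5-FU, and its own log2 fold change was -0.27 ± 0.48 with ICB (edgeR adjusted p = 0.668) and 0.36 ± 0.49 with 5-FU (edgeR adjusted p = 0.594). In PBS replicates 3 and 4 alone Mki67 averaged 579 ± 140 CPM (SD, n = 2), above the means with ICB and with 5-FU, so the sign with 5-FU rests on the PBS tumors of steep slope. In PBS tumors, log2 Tyms minus log2 Mki67 was -0.9, 0.4, -3.24 and -2.77, so replicates 1 and 2, both of steep length slope, stood well above the other PBS tumors. It was -2.9, -2.86, -2.63, -3.13 and -2.56 with ICB and -3.26, -2.95, -2.23, -3.23 and -3.12 with 5-FU, within or near the range of PBS replicates 3 and 4. By limma on these differences, 0 of 9 members were called with ICB (5 unadjusted), against 0.698% of genes, 0 with 5-FU (5 unadjusted), against 0.0279%, and 0 with 5-FU+ICB (3 unadjusted), against 0.497%. Unadjusted, 14%, 17% and 17.5% of all genes passed in these 3 comparisons. In 5-FU+ICB against ICB 0 were called (0 unadjusted), against 0.00558% of genes, and 0 in the other 5 comparisons (1 unadjusted, Upp1 in 5-FU+ICB against 5-FU, where 3.46% of genes passed unadjusted), against 0% of genes.

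With ICB the limma values relative to Mki67 were -1.19 ± 0.57 for Tyms (limma adjusted p = 0.35), -1.51 ± 0.54 for Tk1 (0.212), -1.35 ± 0.55 for Dut (0.274), -1.04 ± 0.49 for Rrm1 (0.347), -1.12 ± 0.49 for Rrm2 (0.311) and 1.24 ± 0.67 for Upp1 (0.413). With 5-FU they were -1.33 for Tyms, -1.7 for Tk1, -1.52 for Dut, -1.35 for Rrm1 and -1.29 for Rrm2 (limma adjusted p = 0.29 for each) and -1.23 for Upp1 (0.302), where the median of all genes was -0.66 (-0.02 with ICB). Without the 4 tumors Tyms was 0.19 and Rrm1 0.08 with ICB and Tyms 0.05 with 5-FU, but the reference moved all genes, whose medians became 1 and 0.34, so these members still lay below the median gene. Leaving out PBS replicate 3 alone gave 5 called members with 5-FU, where 16.2% of all genes were called. Among the members and Mki67, the transcript of Mki67 is the longest.

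Other references for proliferation gave smaller differences for the members of DNA synthesis and a larger one for Upp1 with ICB. Subtracting a list that fell moved the median of all genes upward, to 1 with ICB and 0.53 with 5-FU for the mitotic list and to 0.75 and 0.35 for the S phase list, and the values below stand against those medians. Against the mean of 10 mitotic genes, whose own median log2 fold change was -1.03 with ICB and -0.53 with 5-FU, the members of DNA synthesis stood at -0.16 (Tyms), -0.48 (Tk1), -0.33 (Dut), -0.02 (Rrm1) and -0.09 (Rrm2) with ICB and at -0.15, -0.51, -0.34, -0.17 and -0.1 with 5-FU, and none of these was called by limma. Upp1 rose relative to them with ICB, by 2.26 (limma adjusted p = 0.000642), and stood at -0.05 with 5-FU. Against 10 S phase genes (medians -0.84 and -0.39), Tk1 fell by 0.73 (limma adjusted p = 0.00484) and Dut fell by 0.58 (limma adjusted p = 0.00613) with ICB, and by 0.69 (limma adjusted p = 0.0319) and 0.51 (limma adjusted p = 0.0433) with 5-FU. Tyms was at -0.42, Rrm1 at -0.27 and Rrm2 at -0.35 with ICB on that scale, all short of the 0.5 limit, while Upp1 rose by 2.01 (limma adjusted p = 3e-04). No fit with the mitotic or S phase reference left out the 4 tumors of steep length slope. In PBS tumors, log2 CPM of Tk1 was 7.56, 8.23, 7.26 and 7.21 where the S phase mean was 7.08, 7.1, 7.21 and 7.02. That of Dut was 6.84, 7.21, 6.62 and 6.51. Both genes thus stood higher relative to that mean in PBS replicates 1 and 2, and the part of these 2 tumors in the calls was not tested.

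**Figure D5:**
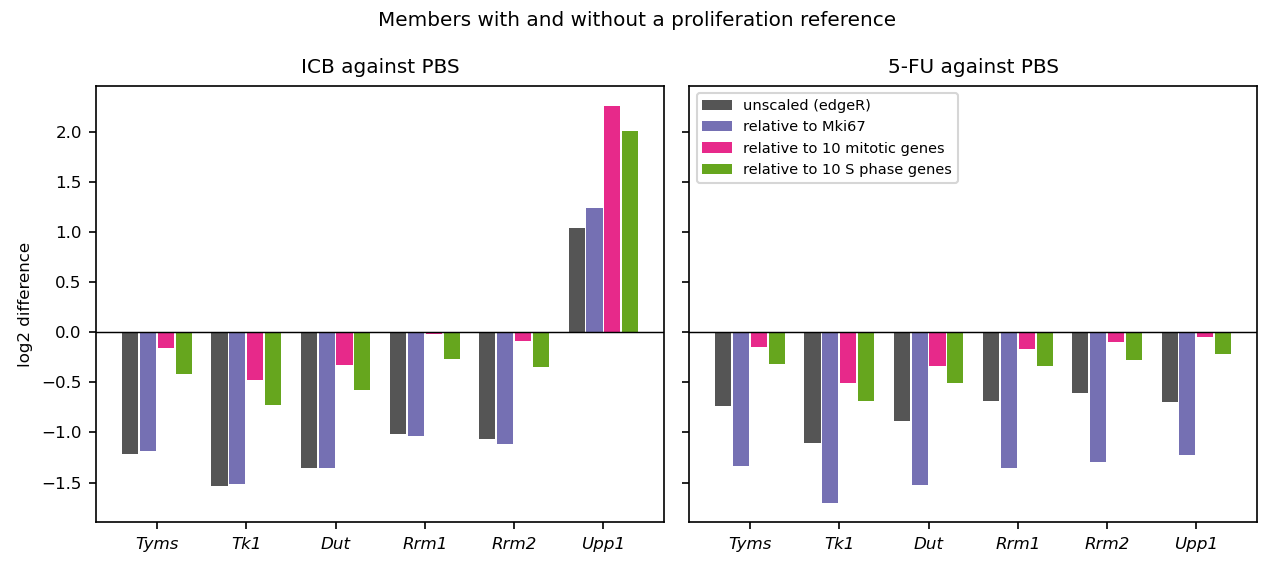
Difference against PBS (log2, y axis) of 6 members (x axis) for ICB and 5-FU, unscaled by edgeR and relative to Mki67, to 10 mitotic genes or to 10 S phase genes by limma. Tyms with ICB is -1.22 unscaled, -1.19 relative to Mki67, -0.16 relative to mitotic genes and -0.42 relative to S phase genes.

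The wider pathway was followed in lists of related genes, whose counts stand against 19% of all genes that rose and 18.8% that fell with ICB, and 9.98% and 13% with 5-FU. Of 13 genes of pyrimidine salvage and activation, 5 fell and 0 rose with ICB, and 5 fell and 0 rose with 5-FU. Dtymk, the thymidylate kinase, fell by 1.46 ± 0.29 with ICB (edgeR adjusted p = 0.00122) and by 0.99 ± 0.29 with 5-FU (edgeR adjusted p = 0.0197). Nme2, a nucleoside diphosphate kinase, fell by 1.16 ± 0.21 (edgeR adjusted p = 0.000818) and 0.86 ± 0.21 (edgeR adjusted p = 0.0107), from 621 ± 249 CPM to 277 ± 19.5 and 346 ± 24.5 CPM (SD). Its relative Nme1 fell by 1.08 with ICB, and Upp2, a second uridine phosphorylase at 2.13 CPM in PBS tumors, fell by 1.05 with 5-FU. Of the 2 genes of de novo synthesis, Dhodh, the mitochondrial dihydroorotate dehydrogenase, fell by 1.17 with ICB and 0.78 with 5-FU, and Cad was not called.

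Of 9 genes that break down or deaminate pyrimidines or their nucleotides, 1 rose and 2 fell with ICB, near the shares of all genes (19% and 18.8%), and 1 rose and 3 fell with 5-FU (9.98% and 13% of all genes). The gene that rose was Samhd1, the dNTP triphosphohydrolase, from 210 ± 77.2 CPM with PBS to 831 ± 105 CPM with ICB (2.03 ± 0.22, edgeR adjusted p = 2.45e-05) and 424 ± 99.6 CPM with 5-FU (1.05 ± 0.21, edgeR adjusted p = 0.00531). Dctpp1, the dCTP pyrophosphatase, fell by 1.72 and 0.96, Dctd, the dCMP deaminase, fell by 1.23 with ICB, and Nt5m, the mitochondrial deoxynucleotidase, fell by 0.77 with 5-FU. Rrm2b, the p53-inducible small subunit of ribonucleotide reductase, was short of the fold limit with ICB, at -0.41 (edgeR adjusted p = 0.0426), and was at -0.27 with 5-FU (edgeR adjusted p = 0.2).

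Of 10 genes of the folate cycle that feeds thymidylate synthesis, 1 rose and 5 fell with ICB, and 0 rose and 1 fell with 5-FU. Fpgs, which adds glutamates to folates, fell by 1.09 with ICB. Of 6 measured genes of 7 listed for transport, 4 rose with ICB and 2 with 5-FU, and 0 fell. Slc28a2, a concentrative nucleoside transporter, rose from 5.56 ± 1.09 CPM to 40.3 ± 10.7 CPM with ICB (2.87 ± 0.46, edgeR adjusted p = 0.000428) and to 13.1 ± 7.85 CPM with 5-FU (1.23 ± 0.43, edgeR adjusted p = 0.045). The efflux pumps Abcg2 (1.63) and Abcc5 (1.24) rose with ICB and Abcc4 (0.77) with 5-FU. Of 9 genes that deal with uracil and mismatches in DNA, 5 fell with ICB, among them the uracil glycosylases Ung (-0.84) and Smug1 (-0.7), and Smug1 fell with 5-FU (-0.85).

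Of the proliferation lists, those that fell were with ICB 7 of 10 mitotic genes (Cdk1 at -1.45, Ccnb1 at -1.29, Birc5 at -1.25) and 8 of 10 S phase genes (Rfc4 at -1.1, Gins2 at -1.09, Mcm5 at -1.07), and with 5-FU 3 (Cdk1 at -1.05, Ccnb1 at -0.86, Birc5 at -0.7) and 4 (Mcm7 at -0.76, Rfc4 at -0.73 and Mcm5 at -0.71 among them). With the 4 tumors left out, 0 genes of any list were called with 5-FU by edgeR, and of the 39 values named for these lists 11 kept their call, all of them with ICB, Samhd1, Slc28a2 and Dhodh included. Of the list genes named with ICB, only Smug1 lost its call in any fit that left out 1 tumor (5 of 9). Of those named with 5-FU, only Samhd1 and Nt5m kept it in all 9 fits, while Birc5 and Slc28a2 lost it in 6, Rfc4 in 5 and Ccnb1, Mcm5 and Dctpp1 in 4.

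The genes most like each member across the 28 tumors were found by Pearson's r of log2 CPM, a description over tumors that share treatments and length slopes. Tyms was most like Snrpd1 (r = 0.986), Rfc4 (0.985) and Ran (0.985), Tk1 most like Cdk1 (0.992), Mad2l1 (0.991) and Gtf3a (0.99), and Dut most like Lrr1 (0.982), Odc1 (0.981) and Cks1b (0.979). Rrm1 was most like Racgap1 (0.981), Ube2c (0.977) and Bub1 (0.977), and Rrm2 most like Slbp (0.975), Ube2c (0.975) and Ncapg (0.967). Umps was most like Brix1 (0.968), Rrp15 (0.966) and Chaf1b (0.96), and Tymp most like Ier5l (0.859), Gm10762 (0.854) and Eva1b (0.838). Upp1 was most like 4930459C07Rik (0.939), Katna1 (0.93) and Lgals3 (0.906). Dpyd was most like Art3 (0.934), Unc45b (0.93), a chaperone of muscle myosin, and Gria3 (0.924). Spearman's rho for these pairs lay between 0.813 (Tymp and Eva1b) and 0.993 (Tk1 and Cdk1), and r of the residuals from the group means between 0.818 (Upp1 and Lgals3) and 0.989 (Tk1 and Cdk1).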

How the data were processed

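The authors demultiplexed the reads of 28 tumors with bcl2fastq 2.20.0.422, quantified them against a mouse transcriptome (GRCm38) with kallisto 0.46.0 and summed transcripts to genes with tximport. They deposited 2 matrices of estimated counts, which share 9 PBS and ICB tumors and were rounded here to whole numbers (23.7% of values were not whole). Totals ran from 23541485 to 33950555 per tumor.

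Genes were kept by filterByExpr (17916 in the 5-FU matrix, 17819 in the cisplatin matrix, 18521 joined) and tested with edgeR 4.0.16 (TMM, quasi-likelihood, R 4.3.3) in a model of the 4 groups of a matrix, or of all 6 groups for 5-FU against Cisplatin, with Benjamini-Hochberg adjustment over all genes. Differences from Mki67 were tested with limma 3.58.1 on log2 CPM (prior count 2). DESeq2 1.42.0, DESeq2 size factors, no filter, no fold limit, a model of the compared groups, a prior count of 0.5, a replicate block, other proliferation references and leaving out each tumor were alternatives. Leaving out the tumors with a length slope below -0.3, or the slope as a covariate, was added after seeing the data. Scripts were tested on simulated data.

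Named besides the members and Mki67 are, for each list, at most 3 called genes with the largest change with ICB or 5-FU, and the 3 genes most like each member. Cad and Rrm2b, outside this rule, complete lists of 2 and 1 genes. Some genes that the rule names are not reported here. The members and lists were chosen with earlier results of these data known. Rows with date-like names in place of a gene symbol (26) were kept as deposited.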

Additional observations from a re-analysis of the deposited data

Results flagged for a closer look

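In 6 of 60 groups of 4 or 5 tumors, for the 9 members and Mki67, 1 tumor lay farther from the others than Dixon's 95% limit, which chance alone exceeds in about 1 of 20 groups. Cisplatin+ICB replicate 1 gave 4 of them. Its log2 CPM was 8.12 for Tyms (others 5.23 to 5.72), 9.19 for Tk1 (6.06 to 6.62) and 8.14 for Dut (5.54 to 6.05), each above the other 4 tumors, and 5.65 for Mki67 (8.44 to 9.11), below them. This tumor had the steepest length slope, -1.09. Dpyd in PBS replicate 1 was high, at -1.5 against -2.09 to -2, which is 7 counts against 5 in each of the others. Umps in Cisplatin replicate 1 was low, at 5.6 against 6.01 to 6.09.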

How the results depend on the processing

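The calls with 5-FU moved with several choices. Where 4 members were called against PBS, 1 was called with no filter on low counts, 2 with a replicate block, 0 without the 4 tumors of steep length slope and 0 with the slope as a covariate (6.95%, 18.6%, 0.37% and 10.8% of all genes), and leaving out 1 tumor gave 0 to 6. Without the 4 tumors the 7 members called with ICB became 2 (11.6% of all genes) and the 6 called with 5-FU+ICB became 0 (9.45%), and Upp1 with 5-FU turned from -0.7 to 0.09. Leaving out 1 tumor gave 6 to 7 members with ICB, with 5176 of 18251 to 7083 of 17789 genes called. With 5-FU+ICB it gave 5 to 8, with 5592 of 18251 to 8701 of 17842 genes called. Where edgeR called 0, DESeq2 called 2 members for the interaction of 5-FU and ICB, 1 for Cisplatin+ICB against PBS and 1 against Cisplatin, and edgeR leaving out 1 tumor called 0 to 2, 0 to 6 and 0 to 1. Over all genes DESeq2 called 1542 of 16114, 2156 of 21321 and 783 of 18622. The highest edgeR count for the interaction came with 1698 of 18326 genes called (without PBS replicate 3). Those for Cisplatin+ICB came with 6277 of 17772 (without its replicate 1) and 536 of 17659 (without its replicate 3). Without the 4 tumors edgeR called 1 in both comparisons of Cisplatin+ICB (9.4% and 8.5% of all genes), and with the slope covariate 3 and 1 (19% and 7.73%).

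Relative to Mki67, where 0 members were called, the mitotic reference gave 1 with ICB, 3 with 5-FU+ICB and 1 with Cisplatin+ICB, and the S phase reference gave 3, 3 and 1, with 2 for 5-FU. Of all genes these references called 52.8%, 43.4% and 12.1%, and 47.5%, 36.7% and 5.55%, with 11.7% for 5-FU. Leaving out the 4 tumors, 1 was called with ICB (2.05% of all genes), and with the slope covariate 1 with ICB and 3 with 5-FU+ICB (68.1% and 51.8%). Leaving out 1 tumor gave 0 to 5 with 5-FU, 0 to 1 with 5-FU+ICB and 0 elsewhere. Both highest counts came without PBS replicate 3, where 2961 and 1361 of 18325 genes were called. Signs turned in the fits without these tumors for Tyms (0.19) and Rrm1 (0.08) with ICB and for Tyms (0.05) and Upp1 (0.38) with 5-FU. With the covariate they turned for Tyms (0.14) and Rrm1 (0.02) with ICB and for Tyms (0.35), Upp1 (0.69), Dut (0.09) and Rrm2 (0.05) with 5-FU. The medians of all genes also turned, from -0.02 to 1 (ICB) and -0.66 to 0.34 (5-FU) without these tumors and to 1.1 and 0.73 with the covariate, so these turns came with a shift of the reference that all genes share, and all turned values but Upp1 with 5-FU without these tumors lay below those medians. The cause of the other changes was not tested.

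Of the members' fold changes reported, 40 of 40 kept direction and call with DESeq2 size factors, and 374 did so when 1 tumor was left out, while 27 lost and 12 gained a call. A value that stayed uncalled counts as kept. Without the 4 tumors 22 of the 40 kept both, 15 lost and 2 gained a call, and 1 changed sign. With the slope as a covariate 31 kept both, 5 lost and 4 gained a call. Replicate numbers did not pair tumors (same-number residuals correlated from -0.666 to 0.682 over 66 pairs, median -0.0136). The replicate block lost Umps with ICB (-0.6), Tyms (-0.68) and Rrm1 (-0.66) with 5-FU and Rrm2 with 5-FU+ICB (-0.72). Depth limits Dpyd, at 0 to 84 counts, and Tymp.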
